A study of Fragaria x ananassa with 4 samples.

Results

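The genes described here are those annotated as pentatricopeptide repeat (PPR) proteins on a custom strawberry array. They were chosen by their annotation text alone: a gene was taken as a member where any of its database hits read pentatricopeptide, PPR repeat or PPR-containing. This gave 323 members among the 35116 named genes of the array. Of the members, 261 carried an Arabidopsis locus in the text. The compartment was given as the mitochondrion for 78 members and as the chloroplast or plastid for 28, 1 member named both, and 216 named neither.

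PPR proteins are encoded in the nucleus, and in Arabidopsis most of them work inside plastids or mitochondria. Each is built from short helical repeats that together recognise a stretch of organelle RNA. Bound to it, the proteins edit, splice, cut, stabilise or help to translate the transcripts of the organelle, among them those for photosynthesis and respiration. As a strawberry receptacle ripens its chloroplasts lose chlorophyll and photosynthetic proteins, while its mitochondria continue to respire.

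The samples were receptacles, the fleshy part of the fruit, of cultivated strawberry (Fragaria × ananassa): 2 of red ripe fruits and 2 of small green fruits (stage G1), none of them transgenic or treated. The methods name the cultivar Camarosa grown in the field, and the labels a growth chamber and then a greenhouse. The study's methods state that achenes were removed before extraction and that RNA came from pools of fruits, whereas the labels speak of independent fruits. Neither says how the replicate arrays relate to the pools, so the p-values measure the spread between these samples, which may be technical. The probes were designed on woodland strawberry gene models, and the files do not separate the gene copies of the octoploid cultivated strawberry.

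The arrays of 1 group correlated at 0.994 for red and 0.995 for green over the tested genes, and arrays of different groups at 0.818 to 0.820. The stage labels fitted the ripening markers: FaMYB10, the regulator of flavonoid genes, was higher in red receptacle by 7.63, and FaCAD1, FaQR and FaEGS2, enzymes of phenylpropanoid, furaneol and eugenol synthesis, by 8.40, 6.75 and 9.74 on the log2 scale. By annotation text, 25 genes were taken as markers of seed and embryo, which achenes would bring. Of these 24 were tested, and 15 were higher and 7 lower in red receptacle, with a median log2 fold change of 0.83. Called changes of at least 2-fold were 11 increases and 3 decreases. The remaining marker, an oleosin gene, was not above background on any array. The text rule also took in other proteins. The 3 decreases were in gene11615, gene11617 and gene31760 (-7.13, -6.16 and -1.37), whose text also names proline-rich proteins. Among the increases was gene21618 (3.52), with an early nodulin entry. The increases included the oleosin genes gene09024 (3.41) and gene31796 (3.20) and the 11S globulin gene08093 (2.96). The summed linear signal of the list was 47.2 and 47.3 in red against 45.3 and 48.6 in green. Much of it came from gene31762, a proline-rich protein gene, and without that gene the sums were 22.9 and 23.9 in red against 16.9 and 18.1 in green. The other proline-rich entries remain in these sums. The part of these markers in the results was not tested. Red replicate 1 was on a slide of its own, and the other 3 arrays shared a slide. In such bulk samples fewer cells of a type and less RNA per cell cannot be told apart.

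PPR genes gave weak signals within a narrow range. Signals are given as log2 of the processed intensity relative to the 75th percentile of the array, so 0 stands for that percentile. Over the members the median was -3.84 and -3.85 in the red samples, against -3.76 and -3.81 in the green samples, which is 46.9 and 35.4 units of processed intensity in red and 28.9 and 24.8 in green. Averaged over the 4 arrays, the members' quartiles lay at -5.66 and -2.43 around a median of -3.82, and those of all genes of the array at -6.65 and -0.09 around a median of -3.28. The interquartile range was thus 3.22 for the members and 6.57 for all genes on the log2 scale. The signal of a probe also depends on its own sequence, so these ranges describe the array and not the abundance of transcripts.

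Their share above background was, even so, higher than that of all genes. All 4 arrays showed 217 members, or 67.2%, well above background, against 61.2% of all genes. None of the arrays did so for 47 members, or 14.6%, against 24.4% of all genes. A further 14 members were well above background on 1 array, 26 on 2 arrays and 19 on 3. Genes above background on at least 2 arrays were tested, which kept 262 members and left out 61. Among the tested genes the median signal was -3.28 for the members and -1.44 for all, and 8.02% of the members but 34.1% of all genes exceeded the 75th percentile of the arrays. No list test was made, and these shares are descriptions.

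**Figure D1:**
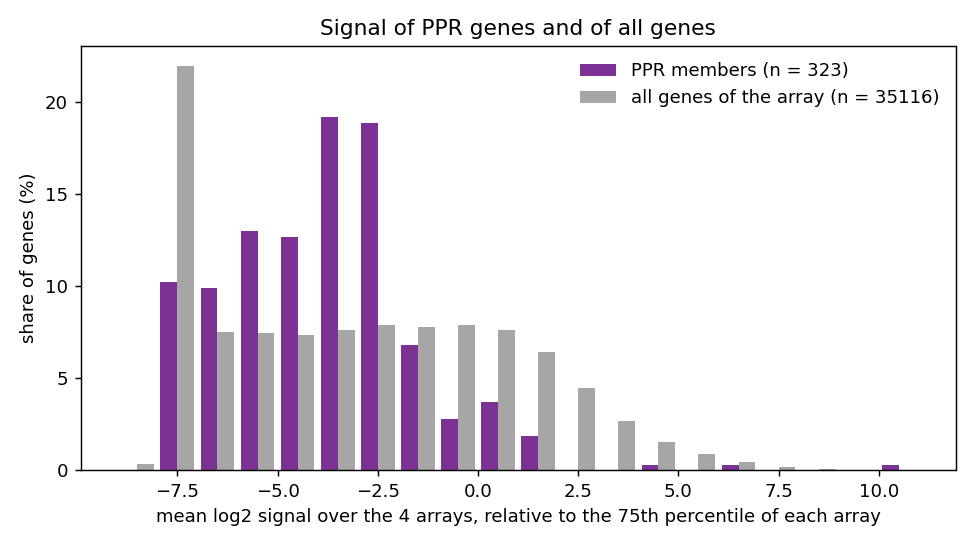
Share of genes (%) in bins 1 log2 unit wide, by mean log2 signal over the 4 arrays (0 is the 75th percentile), for the 323 PPR members and all 35116 genes. The members gather between about -6 and -2, and 3 of them stand apart above 4.

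A few members were bright. gene27705, whose text gives the chloroplast protein At4g19440, had signals of 9.68 and 10.00 in red and 10.23 and 10.39 in green receptacle. It averaged 10.1, near the brightest gene of the array at 10.1, and was not saturated. Its red samples lay below its green ones by 0.47 ± 0.14 (SE; limma adjusted p = 0.044). That call was lost without red replicate 1 (-0.31, adjusted p = 0.115), without green replicate 1 (-0.55, adjusted p = 0.0817) and without green replicate 2 (-0.39, adjusted p = 0.155), and the sign turned under quantile normalization.

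The next in signal was gene16241, a PPR-like protein that carries no Arabidopsis locus. It had 6.71 and 6.86 in red and 6.82 and 6.95 in green receptacle, and the groups overlapped (-0.10 ± 0.096, limma adjusted p = 0.415). gene19937, annotated only as PPR-like, had 4.86 and 4.94 in red and 3.82 and 3.84 in green. It was 2.10-fold higher in red receptacle (limma adjusted p = 0.000538). gene21837, annotated as At3g49240, an embryo-defective locus, had 2.21 and 2.35 in red and 1.53 and 1.38 in green, a rise of 0.83 ± 0.097 (SE; limma adjusted p = 0.0029). gene09286 had 2.04 and 1.97 in red and 1.38 and 1.42 in green and was 1.52-fold higher in red. Its text names a regulatory protein beside the PPR hit, so its family is uncertain. Of these 5 brightest members, 3 were higher in red receptacle and gene27705 was lower, each without overlap of the samples. In the brightest quartile of all tested genes, 3328 of 6244 were called higher and 1635 lower. The groups did not overlap in 87.0% of all tested genes.

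Between the stages, 78 members were higher and 66 lower in red receptacle at an adjusted p under 0.05, or 29.8% and 25.2% of those tested. Over all 24975 genes tested, 37.8% were higher and 35.1% lower. In either direction 144 members passed, or 55.0%, against 72.8% of all genes. Called changes of at least 2-fold were found for 23 members that were higher and 26 that were lower, together 18.7% of the members, against 39.0% of all genes. The median absolute log2 fold change was 0.49 for the members and 0.75 for all genes. Both the share called and the size of the changes were thus below those of all genes, a difference for which no test was made.

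The balance between the directions was even. The median log2 fold change was 0.02 over the members and 0.04 over all genes, and the members' quartiles lay at -0.48 and 0.49. This balance depended on how the arrays were scaled. Under quantile normalization 121 members were higher and 37 lower, beside 42.6% and 31.3% of all genes. In the RMA matrix of the study 115 were higher and 27 lower of 323, beside 36.1% and 16.6% of all genes. After normexp background correction the split turned, with 34 higher and 138 lower, beside 30.8% and 46.2% of all genes. The median of all genes moved along, to 0.19, 0.35 and -0.21 in that order, and the members' median differed from it by 0.18, 0.07 and -0.08. No direction is therefore given for the family.

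The lower share of calls did not depend on the scaling. It was below that of all genes in each of the 14 processings run, between 33.2% and 65.6% for the members and between 52.4% and 77.0% for all genes.

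**Figure D2:**
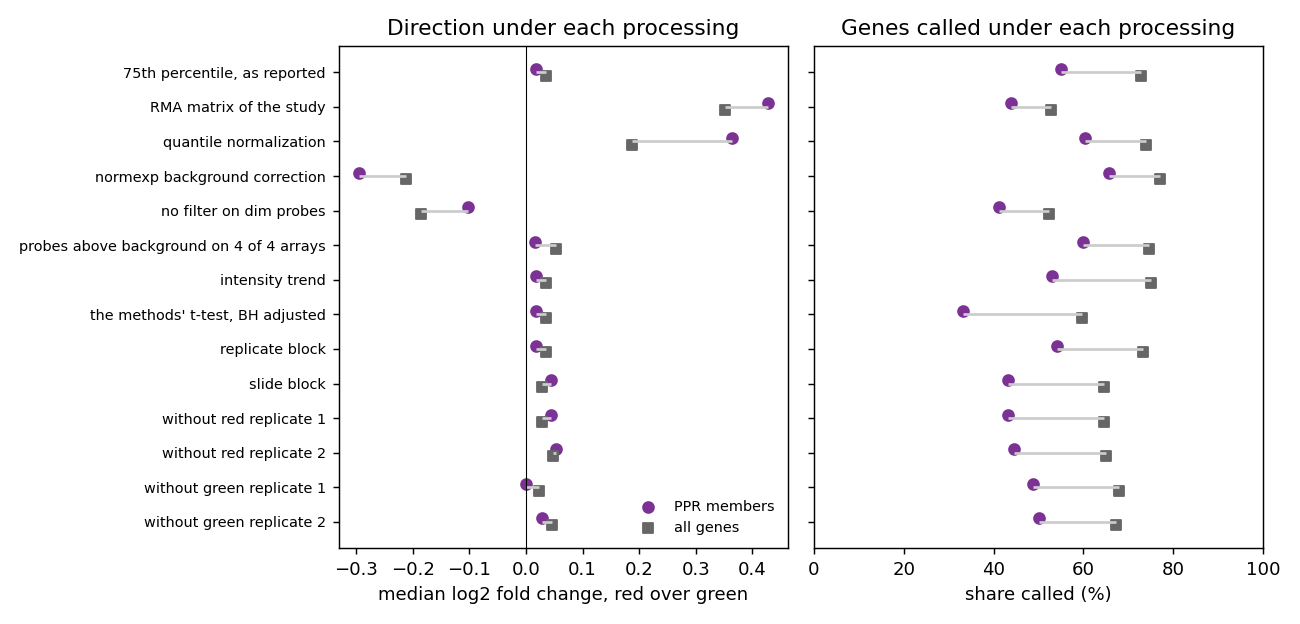
Median log2 fold change, red over green (left), and share of genes called in % (right), for the PPR members and all genes tested under each processing. The medians of both sets move from below 0 under normexp to above 0 under RMA, while the members' share of calls stays left of that of all genes in every line.

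The members' replicates spread more than those of all genes, with a median SD within groups of 0.136 against 0.0933 on the log2 scale. The shares were set side by side within quartiles of signal, cut over all tested genes at -3.74, -1.44 and 0.84. The dimmest quartile held 107 members, of which 50, or 46.7%, were called, against 63.1% of all genes in it. In the next, 71 of 115 members, or 61.7%, were called against 72.0%. In the brighter quartiles the counts were 18 of 31 members against 76.8% of all genes, and 5 of 9 members in the brightest quartile against 79.5%. From the dimmest quartile to the brightest, the median replicate SD was 0.219 for the members against 0.217 for all genes, 0.118 against 0.114, 0.0944 against 0.0711 and 0.0411 against 0.0520. The part of this spread in the share of calls was not tested. The median absolute log2 fold change was 0.56 against 0.93 in the dimmest quartile and 0.48 against 0.78 in the next.

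**Figure D3:**
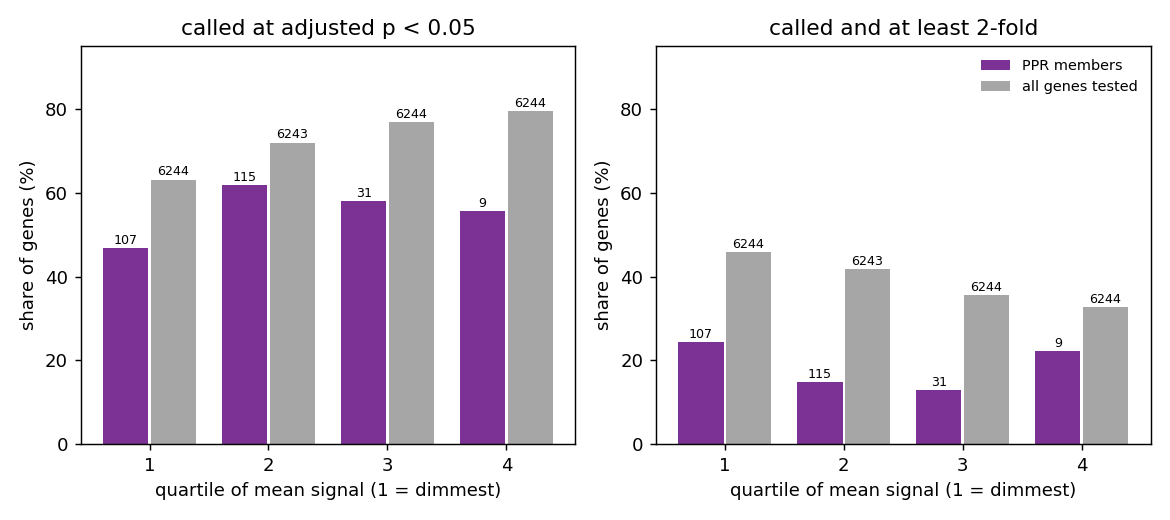
Share of genes (%) called at an adjusted p under 0.05 (left) and also at least 2-fold changed (right) by quartile of mean signal, for the PPR members and all genes tested; the number above a bar is the number of genes. The bar of the members is the lower one in each quartile.

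The large changes rested on few genes. Of the tested members 13, or 4.96%, were called with a log2 fold change beyond 2, against 18.5% of all genes. Beyond 3 went 7, or 2.67%, against 10.8% of all genes. The 13 include gene22494, gene00139, gene08577, gene13698 and gene19211, which were above background at 1 stage only. All of these but gene08577 are also among the 7. Their place in the counts lends no support to a change. The bounds of gene13698 and gene19211, 5.35-fold and 6.18-fold, fall short of a log2 change of 3. At the threshold of the methods, a t-test at an unadjusted 0.05 with a log2 change beyond 2, 4 members were higher and 9 lower, beside 6.45% and 11.7% of all genes. Among members above background on all 4 arrays whose groups did not overlap, 67 were called higher and 56 lower, beside 33.3% and 29.1% of all tested genes under the same rule. Whatever the call, the groups did not overlap in 75.2% of the tested members and in 87.0% of all tested genes. The median change among the 123 members was 1.53-fold upwards and 1.62-fold downwards, and 52 and 36 of them stayed under 2-fold.

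**Figure D4:**
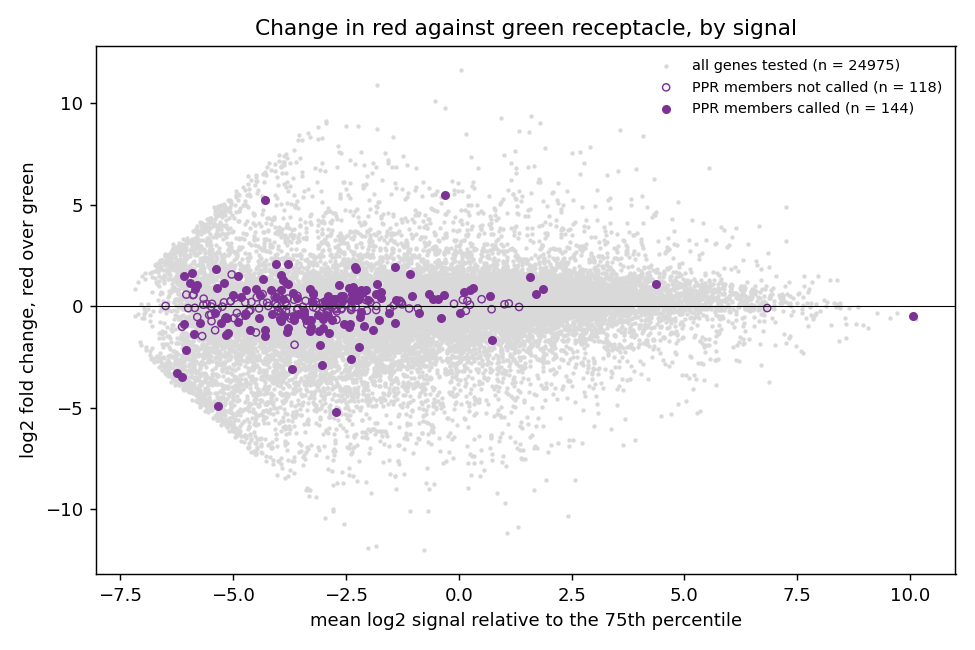
Log2 fold change, red over green, against mean log2 signal relative to the 75th percentile, with all 24975 tested genes as grey dots, 144 called PPR members as filled circles and 118 members not called as open circles. Most members lie within 2 log2 units of no change, and few of them stand far out on either side.

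The largest increase was that of gene01348, annotated as the Arabidopsis protein At5g14080. It had 2.47 and 2.37 in red and -2.93 and -3.16 in green receptacle, so the red samples lay above and the green samples below the 75th percentile. The difference was 5.46 ± 0.11 (SE; limma adjusted p = 4.71e-05), or 44.1-fold. In the RMA matrix its intensities were 2894 and 2692 in red against 48.4 and 39.7 in green. No other member measured on all arrays rose by more than 4.27-fold.

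The rises that followed were between 2.49-fold and 4.27-fold. gene25688, annotated only as PPR-containing, had -3.14 and -2.87 in red and -5.09 and -5.11 in green receptacle, 4.27-fold higher in red (limma adjusted p = 0.000362). gene18015, also without a locus, had -2.75 and -2.75 in red and -4.58 and -5.04 in green, a 4.18-fold difference. In both genes the samples of the 2 stages were well apart. gene11782, annotated as the mitochondrial protein At5g46460, had -1.31 and -1.35 in red and -3.23 and -3.27 in green, 3.79-fold higher (limma adjusted p = 0.000116). gene26916 had -0.19 and -0.40 in red and -1.90 and -1.87 in green, 3.01-fold higher. gene12056, annotated as At5g27460, had -3.30 and -3.05 in red and -5.01 and -4.39 in green and was 2.88-fold higher, a call lost under normexp. These genes share no annotated compartment.

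gene19883, annotated as the mitochondrial protein At2g26790, was 1 of 2 members with a pair of probes. It had 2.25 and 2.34 in red and 0.72 and 0.97 in green receptacle, a 2.73-fold rise (limma adjusted p = 0.000966). Taken apart, the probes gave log2 differences of 1.33 and 1.57, the same direction with like sizes. Their levels were far apart, at 7.98 and 7.97 in red for 1 probe and -3.47 and -3.30 for the other. The values of the gene are means of both and match neither probe. Whether both probes read the same transcript was not tested.

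Some members rose in pairs that carry the same annotation. gene13952 and gene27023 are both annotated as At4g28010. gene13952 had -0.41 and -0.50 in red and -2.15 and -2.58 in green receptacle, a 3.76-fold rise. gene27023 had -1.28 and -1.46 in red and -3.01 and -3.34 in green, a 3.50-fold rise (limma adjusted p = 0.00138 and 0.00105). gene29420 and gene31931, both annotated as At5g66631, were 2.49-fold and 2.44-fold higher. gene29420 lost its call under normexp.

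Pairs also fell together. gene20260 and gene20238, both annotated as At4g39530, were lower in red receptacle by 1.27 and 1.06 on the log2 scale (limma adjusted p = 0.000332 and 0.00226). gene09834 and gene10714, both annotated as At1g64310, were lower by 1.22 and 0.80. In all, 26 Arabidopsis loci were named by more than 1 member. All tested members of such a locus were higher for 2 loci and lower for 2, none was called for 6, some were called and some not for 5, and 2 held members of opposite direction. The remaining 9 loci had a member that was not tested. Over all tested genes 37.8% were higher and 35.1% lower, so members of a locus can share a direction without being linked. Whether they did so more often than other genes was not tested. The falling pairs and gene31931 were chosen after their values were seen.

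The opposite directions were measured for At3g01580 and At3g24000. gene27875 had -2.59 and -2.74 in red and -3.07 and -3.23 in green receptacle, whereas gene27938 of the same locus had -5.50 and -5.48 in red and -4.79 and -4.99 in green. Both differences were called (limma adjusted p = 0.015 and 0.00745). For At3g24000, gene17859 was higher by 0.47 and gene19861 lower by 1.20, both called. The third member of that locus, gene20764, was lower by 0.88 (limma adjusted p = 0.0117) and not above background on either red array. These loci were chosen after their values were seen. Near-identical copies can bind each other's probes, and whether they did was not tested, since no probe sequence was at hand.

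The largest decrease was that of gene01384, annotated as the mitochondrial protein At3g26782. It had -5.59 and -5.09 in red and -0.16 and -0.06 in green receptacle, so the green samples were near the 75th percentile and the red ones far below it. The difference was -5.23 ± 0.2 (SE; limma adjusted p = 0.000151), or 37.5-fold. In the RMA matrix its intensities were 8.63 and 13.0 in red and 340 and 357 in green.

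Next came gene10461, annotated as the chloroplast protein At1g79080, with -4.80 and -5.69 in red and -2.10 and -2.20 in green receptacle. It was 8.55-fold lower in red (limma adjusted p = 0.0022), and its red replicates spread more than its green ones. gene23750, annotated as At2g17033, had -4.37 and -4.58 in red and -1.65 and -1.51 in green and was 7.45-fold lower. gene00893, annotated as the chloroplast protein At5g13770, had -3.72 and -3.67 in red and -1.11 and -1.04 in green and was 6.16-fold lower (limma adjusted p = 7.24e-05). In each of these the groups lay far apart.

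Smaller decreases followed. gene21006, a mitochondrial entry with both At2g40240 and At3g56030 in its text, was 4.06-fold lower, and gene13927, annotated as the mitochondrial protein At2g17525, 3.72-fold. gene22016, which names the DYW-type protein At1g19720 but also a calreticulin, was 2.80-fold lower. DYW proteins are PPR proteins with a C-terminal domain that acts in RNA editing in plants. gene04049, annotated as the mitochondrial protein At1g71060, was 2.53-fold lower and gene12693 2.48-fold. Their limma adjusted p ranged up to 0.00354, in gene04049.

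**Figure D5:**
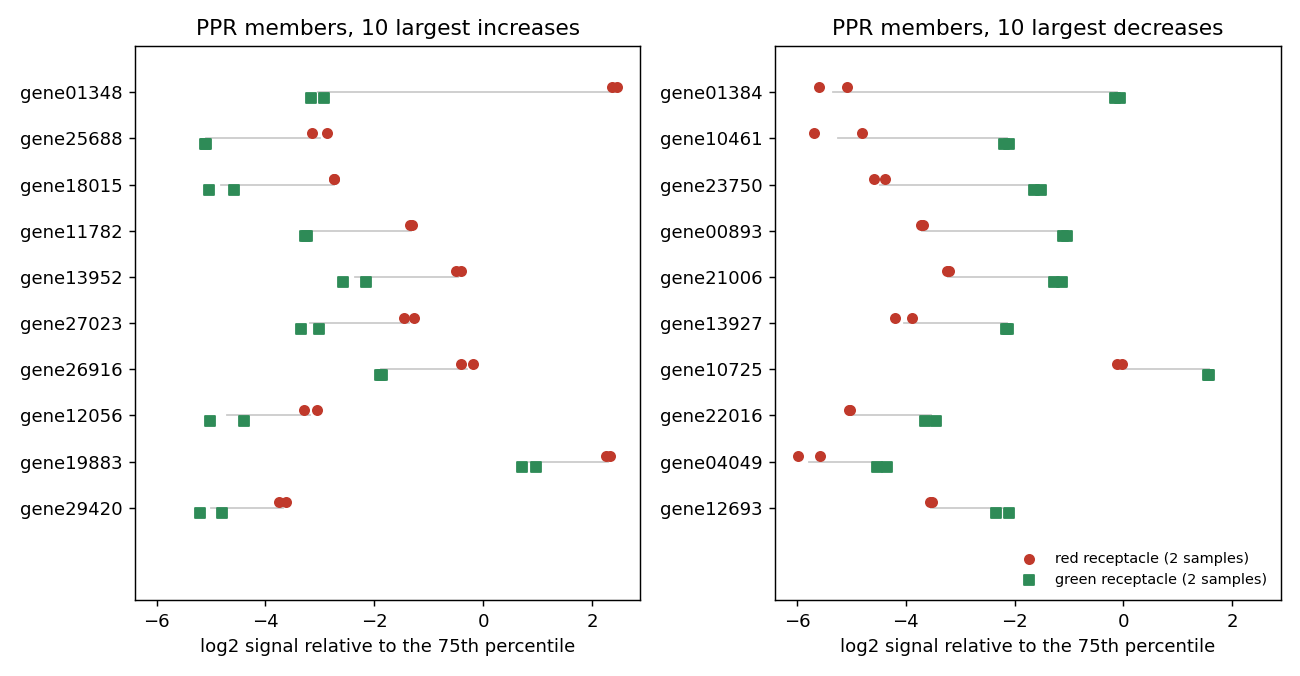
Log2 signal relative to the 75th percentile in each of the 2 red (circles) and 2 green (squares) receptacle samples for the 10 PPR members with the largest increase (left) and the 10 with the largest decrease (right); grey lines join the group means. gene01348 and gene01384 stand out with changes of 44.1-fold and 37.5-fold, and in all 20 genes the groups are apart.

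Further members were measured at 1 stage only. For 8 that were higher, neither green array was well above background, and for 7 that were lower neither red array was. Their folds, called bounds here, were taken against a floor. On each dim array the lowest level detected above background stood in for the gene unless the gene itself was brighter. This floor is not a detection limit. gene14212, with -6.36 and -5.63, was not above background in red, nor gene00422, with -6.23 and -5.44, in green. The bounds are therefore not strict lower limits. The members measured at 1 stage entered the test through the stage at which they were high. Their p-values and counts therefore lend no support to a change. These members are part of the 78 called higher and the 66 called lower. Such genes also count in the shares given for all genes. gene22494, annotated as the mitochondrial protein At5g08310, had -1.53 and -1.80 in red and -6.47 and -7.35 in green receptacle. It was higher in red with a bound of 27.5-fold (limma adjusted p = 0.000555). The next bound was 3.02-fold, for gene17314, annotated as At2g17140, with -4.49 and -4.43 in red and -5.67 and -6.91 in green. Its call was lost without red replicate 1 (1.87, adjusted p = 0.0614) or red replicate 2 (1.81, adjusted p = 0.0657), and its direction turned under normexp (-0.14).

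Among those not above background in red receptacle, gene00139 was lower by the widest margin. It had -7.58 and -8.02 in red and -2.83 and -2.90 in green, with a bound of 17.7-fold (limma adjusted p = 0.00013). Its text holds a selenium-binding entry beside the PPR one. gene19211, annotated as the mitochondrial protein At4g01030, had -8.07 and -7.71 in red and -4.25 and -4.52 in green, with a bound of 6.18-fold.

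Named by function in Arabidopsis, 23 members matched a list of PPR proteins with known roles. Of these 19 were tested: 4 were higher, 6 lower and 9 not called. The 10 called make 52.6%, beside 72.8% of all genes. The roles below are those of the Arabidopsis proteins, and the annotation is by similarity, so none of them is shown to be the strawberry ortholog.

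Among those that act in plastids, SOT1, MRL1 and PGR3 were matched by members that were lower in red receptacle. gene10725 matched SOT1, which acts in the maturation of plastid ribosomal RNA. It had -0.03 and -0.13 in red and 1.56 and 1.57 in green receptacle, 3.13-fold lower in red (limma adjusted p = 0.000205). gene07363 matched MRL1, which stabilises the transcript of the large Rubisco subunit, and was 2.70-fold lower, with -6.07 and -5.67 in red, where 1 of 2 arrays was above background, and -4.55 and -4.31 in green. gene15003 matched PGR3, which stabilises a transcript of the cytochrome complex that links the photosystems. It had -1.83 and -1.84 in red and -1.03 and -0.96 in green and was 1.79-fold lower (limma adjusted p = 0.000916).

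The other plastid proteins in this paragraph were not called lower. The embryo-defective genes are given apart below, and the text of gene06739 among them names the chloroplast. Of these, gene30085 was lower, gene02475 higher and gene06739 not called. gene17557, matching LPA66, an editing factor for a photosystem transcript, had -2.12 and -1.83 in red and -2.77 and -2.41 in green receptacle, 1.53-fold higher in red (limma adjusted p = 0.0391). The call was lost without red replicate 2 (0.47, adjusted p = 0.116) and without green replicate 1 (0.44, adjusted p = 0.113). gene20461, matching GUN1, which acts in signalling from plastid to nucleus, had 0.66 and 0.63 in red and 0.82 and 0.79 in green, and its difference of -0.15 ± 0.064 (SE) did not pass (limma adjusted p = 0.0964). It was one of the brighter role genes. The editing factors OTP84 (gene19952) and YS1 (gene22438) were not called, at -0.03 ± 0.096 and 0.10 ± 0.21. Without green replicate 1, gene22438 was called (0.38, adjusted p = 0.0465). CRR21 (gene30952), ECB2 (gene06021) and CRP1 (gene11832) were not well above background on any array.

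Members that match proteins of mitochondrial transcripts differed by less than 2-fold. gene09951 matched BIR6, which acts in splicing of a transcript of respiratory complex I, with -1.91 and -1.93 in red and -2.36 and -2.69 in green receptacle, 1.53-fold higher in red (limma adjusted p = 0.018). Its text calls it chloroplastic, although BIR6 is known from mitochondria in Arabidopsis, and the text of gene11832 calls CRP1, a chloroplast protein, mitochondrial. gene11072 matched PPR40, linked to complex III, and was 1.29-fold higher (limma adjusted p = 0.0372). Both calls were lost in some fits with 1 sample left out. gene09951 kept its size in these, at 0.60 without red replicate 1 and 0.62 without red replicate 2. gene11072 had 0.26 without red replicate 1, 0.31 without green replicate 1 and 0.41 without green replicate 2.

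gene19588 matched PPR336, found with the mitochondrial ribosome, and was lower by 0.33 ± 0.066 (SE; limma adjusted p = 0.0142). It lost the call without red replicate 1, red replicate 2 or green replicate 1, with like sizes of -0.36, -0.30 and -0.32 in that order. The splicing factor OTP43 (gene09495) and the editing factors MEF11 (gene15765) and SLG1 (gene30348) were not called, at 0.10 ± 0.12, -0.23 ± 0.1 and 0.50 ± 0.19. For gene30348 the call was gained without red replicate 2 (0.74, adjusted p = 0.0125). MEF1 (gene26900) was above background on 1 array and not tested.

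PNM1, a protein of mitochondria and nucleus, was the locus of a pair. gene11805 had 1.34 and 1.29 in red and 1.37 and 1.35 in green receptacle and was not called. gene19227 was lower by 0.36 ± 0.082 (SE; limma adjusted p = 0.0209). Its call was lost without red replicate 1, red replicate 2 or green replicate 2, with sizes of -0.37, -0.34 and -0.28 in that order. LOJ (gene31485), named for lateral organ junctions, was not called at 0.17 ± 0.12.

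The embryo-defective genes, whose loss stops the Arabidopsis embryo, did not move together. gene30085, matching EMB175, had -3.94 and -3.91 in red and -2.57 and -2.80 in green receptacle and was 2.36-fold lower in red (limma adjusted p = 0.00116). gene02475, matching EMB2654, had -3.31 and -3.39 in red and -4.02 and -4.02 in green and was 1.59-fold higher (limma adjusted p = 0.00184), with the sign turned under normexp. gene06739, matching EMB1270, showed no detectable difference, at 0.01 ± 0.17.

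Grouped by the compartment in the text, 6 of the 22 tested chloroplast members were higher and 8 lower in red receptacle, with a median log2 fold change of 0.05. Of the called changes of at least 2-fold in this group, 0 were increases and 6 were decreases. This split depended on the processing. RMA gave 6 increases and 5 decreases among 28 members, and quantile normalization 4 and 4. With normexp they were 0 and 3, and with no filter on dim probes 0 and 8. Of 68 tested mitochondrial members 23 were higher and 18 lower, with a median of 0.06 and with 3 increases and 6 decreases of at least 2-fold. Of the 172 tested members with neither compartment 49 were higher and 40 lower, with a median of 0.01. The groups' shares called were 63.6%, 60.3% and 51.7%, beside 72.8% of all genes, and called increases and decreases of at least 2-fold made up 17.4% and 21.5% of all genes. No difference between the groups was tested.

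Beside them stood proteins of like structure or of the same organelles, whose counts are read against the 37.8% of all genes that were higher and the 35.1% that were lower. Tetratricopeptide repeat proteins, which are built from related helical repeats but bind proteins, had 6 of 17 tested genes higher and 4 lower, a median of 0.19 and 58.8% called. Organelle RNA factors of other families, such as termination, splicing and editing factors, had 19 of 27 higher and 6 lower, with a median of 0.46. Chloroplast ribosomal proteins had 16 of 59 higher and 32 lower, with a median of -0.56. Of 9 mitochondrial ribosomal proteins 4 were higher and 1 lower. Photosystem and light-harvesting genes had 2 of 51 higher and 49 lower, with a median of -3.46, on the same arrays on which the PPR median was 0.02. These lists were counted under the reported scaling only. Other processings moved the median of all genes to as low as -0.21 (normexp) and as high as 0.35 (RMA). Whether the directions of the lists hold under them was not tested.

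The 118 tested members that were not called had log2 fold changes between -1.90 and 1.56 and a median SE of 0.136, against 0.105 among the called. Of these 7 differed by more than 2-fold. The widest was gene23227, chosen after its values were seen, with -7.81 and -1.38 in red and -2.74 and -2.64 in green receptacle. Its red samples lay on either side of the green ones, and the difference of -1.90 ± 2.3 (SE) says nothing of its direction (limma adjusted p = 0.4995).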

How the data were processed

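Receptacle RNA of 2 red and 2 green samples was read on 1-colour Agilent arrays. The deposited scanner files hold an intensity for each spot, which Agilent Feature Extraction 10.7.3.1 had background-subtracted, and the authors also deposited an RMA matrix of intensity on a linear scale. Its annotation text supplied the members, each hit with a value of at most 9.99e-06, listed alphabetically. Control and flagged spots were left out (84 to 255 flagged spots an array), spots of a probe averaged, and log2 values set relative to the 75th percentile of the array, which was 671 and 509 in red and 390 and 347 in green. A gene's value is the mean of its probes that were well above background in 2 or more of the 4 samples, and 40 genes with a missing value were dropped, no member among them. Of the members 321 had 1 probe and 2 had 2, and 0 were saturated.

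All 24975 genes were fitted with limma 3.58.1 (lmFit, eBayes, no trend, no block) in R 4.3.3, with Benjamini-Hochberg adjustment over all of them and a threshold of 0.05. With 2 residual degrees of freedom the test leaned on 1.81 prior degrees of freedom. Arrays give no counts, so their number limits the precision.

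The members, gene lists and tests were chosen with earlier results of these data known. Named genes are the 10 largest increases and 10 largest decreases among called members above background on all arrays without overlap of the groups, the 5 brightest members, those whose Arabidopsis locus is in a list of known roles, and the 2 largest bounds in each direction; others are marked. Alternatives covered normalization, background correction, the filter, the test, blocks, the annotation rule and each sample left out. A fit without 1 sample leaves 1 sample in its group, and a smaller share of all genes was called in each such fit. A call lost there need not mean that the size changed. The rule that uses the hit with the lowest value was added after seeing the data. It keeps 298 of the 323 members, of which 240 were tested. As hits are listed alphabetically, the first hit need not be the one with the lowest value. Sequences and genome positions were not used here.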

Additional observations from a re-analysis of the deposited data

How the results depend on the processing

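Against the reported 78 members higher and 66 lower, the RMA matrix gave 115 and 27, quantile normalization 121 and 37, normexp 34 and 138, the methods' t-test after adjustment 45 and 42, and the first annotation hit alone, which keeps 101 tested members, 33 and 25. The members' median log2 fold change was 0.427, 0.364, -0.295, 0.017 and 0.085 in that order, and -0.102 with no filter on dim probes. Set against the median of all genes it was -0.019 as reported, 0.075 with RMA, 0.177 with quantile normalization, -0.082 with normexp, 0.083 without the filter, 0.049 with the first hit and 0.016 with the slide as a block. The slide block equals leaving out red replicate 1, which had a slide of its own. Leaving out 1 sample at a time gave 53 to 74 members higher and 57 to 60 lower, medians of -0.00075 to 0.052 and differences from all genes of -0.024 to 0.015.

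Of the chloroplast members 11 were higher with quantile normalization and 3 with normexp, the t-test or the slide block, against 6 as reported; the first hit gave 2 higher and 1 lower, and leaving out 1 sample 3 to 7 higher. Of the mitochondrial members, RMA gave 35 higher and 6 lower, quantile normalization 9 lower, normexp 10 higher and 33 lower, the t-test 13 and 10, and the first hit 8 and 8. Of those with neither, RMA gave 14 lower, quantile normalization 77 higher and 20 lower, normexp 21 and 96, the t-test 29 and 24, and the first hit 23 and 16. The causes were not tested.

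The median signal of the tested members minus that of all genes tested was -1.84 on the log2 scale. It was -1.14 with normexp and -1.98 to -1.86 with 1 sample left out. With RMA the difference was -0.56, but over all 323 members and all 35116 genes, so it is not set against -1.84. Over those sets the medians were 4.86 and 5.41 with RMA, and -3.82 and -3.28 as reported.

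Among genes called under at least 1 of the processings set side by side, signs turned against the reported values in gene02475 (-0.068), gene17314 (-0.14), gene22438 (-0.44) and gene31485 (-0.31) under normexp, in gene11805 (0.42) and gene19588 (0.14) with RMA, and in gene19952 (0.34) and gene27705 (0.019) with quantile normalization. Among genes called under neither, they turned in gene06739 (-0.25), gene09495 (-0.21), gene16241 (0.0023) and gene30348 (-0.0998) under normexp, in gene15765 (0.23), gene16241 (0.37), gene19952 (0.44) and gene20461 (0.31) with RMA, and in gene06739 (-0.094) with the slide block. With 1 sample left out gene06739 ranged over -0.19 to 0.21, gene09495 over -0.042 to 0.24, gene19952 over -0.11 to 0.052 and gene22438 over -0.18 to 0.38.

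Same-numbered samples did not deviate together (correlation 0.0782), so the replicate numbers do not pair the samples. With the replicate number as a block 71 members were higher and 71 lower, and the median of 0.017 is the same by construction; gene11072 lost its call (adjusted p = 0.0715), gene30348 gained one (adjusted p = 0.0472), and no other named gene changed its call. Of the members 61 had too little signal to be tested.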
